A study of Mus musculus with 12 samples.

Results

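The miR-181 family was followed in quadriceps of C57Bl/6 pups at postnatal day 7, in 6 mice that lack cofilin-2 (Cfl2-KO, numbered KO1 to KO6) and 6 wild-type littermates (WT1 to WT6). Cofilin-2 is an actin-binding protein of skeletal muscle, encoded by Cfl2, and the KO pups are labelled null for it. Each of the 12 samples is muscle of a separate mouse, and no treatment is named for either group. MicroRNA levels were read as normalized intensities on an array designed from miRBase version 17. The members, chosen by their names, were mmu-miR-181a, mmu-miR-181b, mmu-miR-181c and mmu-miR-181d, which are 4 of the 1096 names on the array, and the starred names of the same hairpins were kept apart as the other arms. The family itself was selected on the intensities of miR-181b, which were lower in KO in these samples, so every KO against WT value of a member is given below as a description, without a p-value. Counts of members past a threshold are also given, and they restate this selection.

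MicroRNAs are short RNAs that guide the silencing machinery to messenger RNAs, and bases 2 to 8 from the 5′ end, the seed, do most of the pairing. The miR-181 family is known from lymphocyte development, where it sets the sensitivity of T cell signalling, from endothelium, where miR-181b damps NF-κB signalling, and from muscle, where miR-181 rises as myoblasts differentiate and represses the homeobox gene Hoxa11. Members with the same seed are predicted to share most of their targets.

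All 4 members were matched to RefSeq mature miRNAs of GRCm38.p6, as the 5p arm of their hairpins. They are shown because their differences decide how far a probe can tell them apart. Capitals mark the seed.
miR-181a: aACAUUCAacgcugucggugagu
miR-181b: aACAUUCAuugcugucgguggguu
miR-181c: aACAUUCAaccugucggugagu
miR-181d: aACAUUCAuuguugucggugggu
Of 1679 mature names in the RefSeq table, these 4 carry the seed ACAUUCA and no other does. With positions counted from 1 at the 5′ end and the first-named miRNA's base given first, miR-181b and miR-181d differ by C12U alone over the 23 bases they can be compared on, and miR-181b is 1 base longer. miR-181a differs from miR-181b by A9U, C10U and A21G. miR-181c is miR-181a with 1 base missing. The probe sequences were not used here, and how far the probe of a member also reads another member was not tested.

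The 4 miRNAs come from 6 genes in 3 pairs. Mir181a-1 (chr1:137966455-137966541) and Mir181b-1 (chr1:137966639-137966718) lie on the plus strand with 97 bases between them and overlap no other RefSeq gene. Mir181a-2 (chr2:38852735-38852810) and Mir181b-2 (chr2:38853830-38853918), also on the plus strand, lie 1019 bases apart. Both overlap Nr6a1 and the long noncoding RNA Nr6a1os in position, and the strands of those genes were not compared here. On the minus strand of chromosome 8, the mature miR-181d (chr8:84178759-84178781) and miR-181c (chr8:84178924-84178945) come from hairpins 85 bases apart. The hairpins of miR-181b show why its array value cannot be assigned to a gene, since the mature stretch, in capitals, is the same in both.
Mir181b-1: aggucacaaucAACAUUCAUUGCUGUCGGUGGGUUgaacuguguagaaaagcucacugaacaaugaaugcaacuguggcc
Mir181b-2: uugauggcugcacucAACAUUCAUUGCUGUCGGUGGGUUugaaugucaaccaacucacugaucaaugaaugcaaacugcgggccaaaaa
The same holds for miR-181a, which both of its genes encode in identical form.

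Summed intensities lay between 594311 and 636136 per sample, and 370 names with a mean intensity of at least 32 were tested, all 4 members among them. The labels give Cy5 as the dye of each WT sample and Cy3 as that of each KO sample, and in any value below dye and genotype cannot be told apart. KO1 stood apart from its group, with a mean correlation of 0.848 with the other KO samples across the 370 miRNAs, against 0.907 to 0.945 for KO2 to KO6 and 0.949 to 0.970 in WT. Of the muscle-enriched miRNAs on the array, miR-1a (45284 ± 4979 in WT, SD, n = 6), miR-206, miR-133a and miR-133b were bright, whereas miR-208a-3p, miR-208b and miR-499 never passed 30.

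miR-181b was lower in every KO mouse than in any WT mouse. Its intensity was 315 in WT1, 469 in WT2, 530 in WT3, 267 in WT4, 389 in WT5 and 324 in WT6. In KO it was 115 in KO1, 119 in KO2, 151 in KO3, 147 in KO4, 159 in KO5 and 226 in KO6. The groups did not overlap, and KO6 came nearest to WT. The mean log2 intensity was lower in KO by 1.32 (log2 difference -1.32, standard error 0.231), which is 2.50-fold on the geometric mean. Among the 370 miRNAs this was the fall of rank 2, and without KO1 the difference was -1.24. KO samples lay wholly below WT for 3 of the 370 miRNAs tested (0.811%). The paper also measured miR-181b by qRT-PCR, and there it reports a trend in the array's direction that was not statistically significant. In muscle tissue, fewer cells of a type and less of the miRNA per cell cannot be told apart.

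miR-181a, the partner encoded beside miR-181b in both clusters, had a lower mean in KO as well, by a smaller amount, and its groups overlapped. It was at 829, 1350, 1233, 639, 1040 and 787 in WT1 to WT6 and at 683, 444, 513, 454, 746 and 711 in KO1 to KO6. KO2, KO3 and KO4 lay below every WT mouse, while KO1, KO5 and KO6 lay above WT4, the lowest WT sample. The log2 difference was -0.71 (standard error 0.237), or 1.64-fold on the geometric mean, and -0.76 without KO1.

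miR-181d, from the third pair of genes, also had a lower mean in KO, with more overlap. It measured 126, 168, 243, 252, 351 and 164 in WT1 to WT6 and 85, 88, 140, 154, 140 and 278 in KO1 to KO6. Only KO1 and KO2 lay below all WT mice, and KO6 was above 5 of the 6. The log2 difference was -0.60 (standard error 0.323), and it was -0.46 without KO1 and -0.80 without KO6.

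miR-181c was dim and showed no direction. Its intensity was 13, 39, 49, 21, 71 and 10 in WT1 to WT6 and 26, 13, 63, 15, 59 and 54 in KO1 to KO6, where the median miRNA of a sample was at 12 to 14. The groups covered nearly the same range. The log2 difference of 0.24 was smaller than its standard error of 0.552, and it turned to -0.04 when 1 mouse, WT6, was left out.

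**Figure D1:**
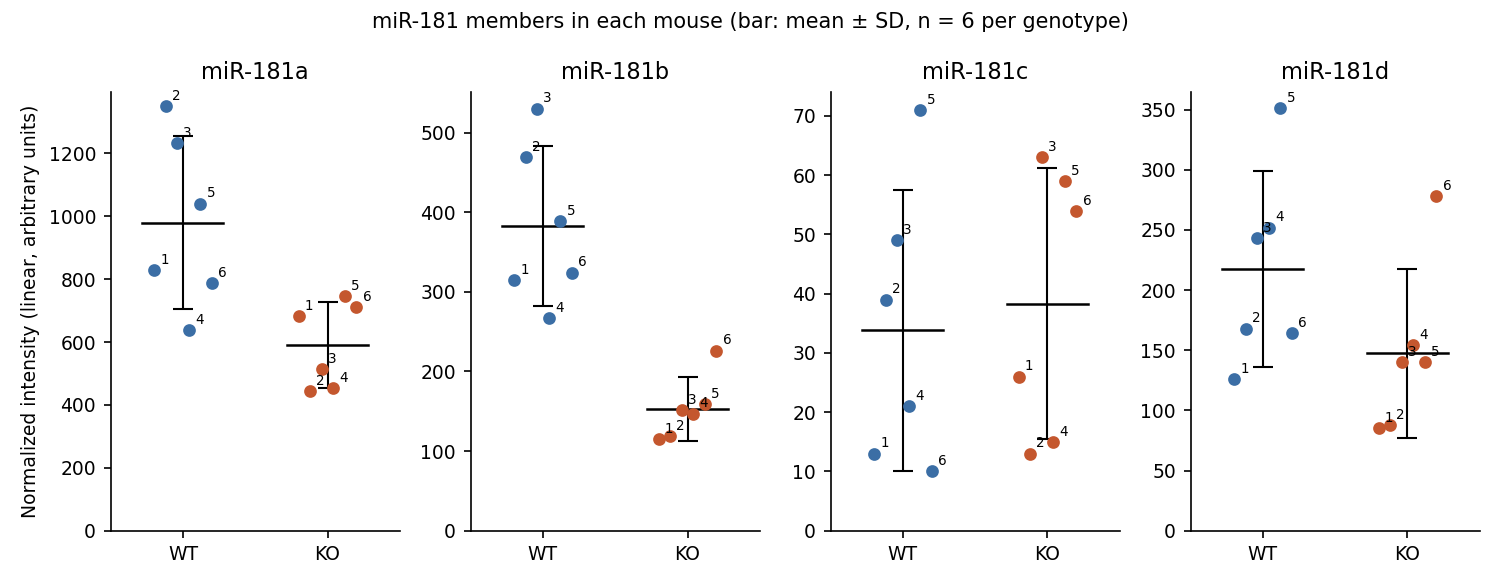
Normalized intensity (linear scale, arbitrary units) of the 4 members in each mouse, WT in blue and KO in orange, with the mouse number beside each point and bars for mean ± SD (n = 6 per genotype). The 6 KO mice sit between 115 and 226 for miR-181b, all below the WT mice at 267 to 530, whereas the genotypes overlap for the other 3 members.

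In the fit over all 370 miRNAs, 1 of the 4 members, miR-181b, passed the threshold of 0.05 on the adjusted p as lower in KO, where 1 of all 370 (0.27%) did so. That 1 miRNA is miR-181b itself. At the unadjusted threshold 2 of the 4, miR-181a and miR-181b, passed as lower, beside 9.73% of all tested. Both counts come from the contrast on which the family was selected, and they restate that choice. The median log2 difference over all 370 miRNAs was -0.08, and 56.8% of them had a lower mean in KO, as had 3 of the 4 members. No member passed the adjusted threshold without a filter on dim miRNAs or with the replicate number as a block after cyclic loess, and 2 members, miR-181a and miR-181b, passed it with array weights.

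**Figure D2:**
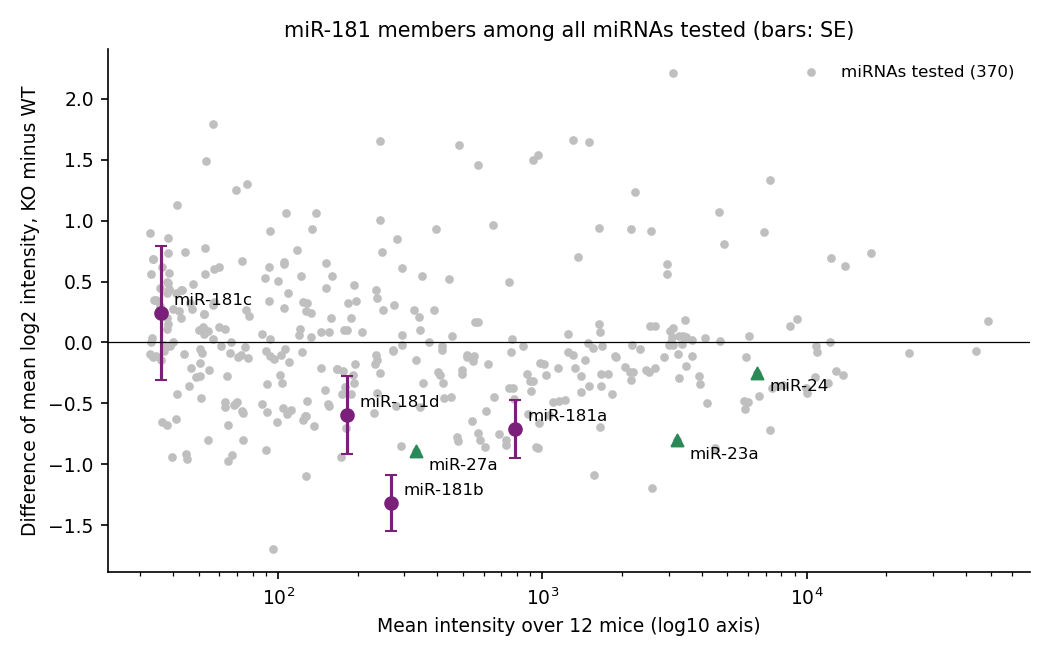
Difference of mean log2 intensity, KO minus WT, against mean intensity over the 12 mice (log10 axis) for the 370 miRNAs tested (grey), with the 4 members (purple, bars give the standard error) and 3 miRNAs encoded near miR-181c and miR-181d (green triangles). miR-181b lies at -1.32, below miR-181a at -0.71, miR-181d at -0.60 and miR-181c at 0.24.

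miR-181b and miR-181a share both clusters, and their shifts were set side by side in each mouse. Within a mouse, log2 intensity of miR-181b minus that of miR-181a has no meaning as a level, since each probe has its own brightness. A shift of it between mice shows that the readings of the probes changed unequally. Between genotypes, a dye effect that differs between the probes cannot be told apart from such a shift. The within-mouse difference was -1.40, -1.53, -1.22, -1.26, -1.42 and -1.28 in WT1 to WT6, a mean of -1.35 ± 0.117 (SD, n = 6). It was -2.57, -1.90, -1.76, -1.63, -2.23 and -1.65 in KO1 to KO6, a mean of -1.96 ± 0.372 (SD, n = 6). All KO mice lay below all WT mice, and the shift was -0.61 (standard error 0.159) with KO1 and -0.49 without it. KO1 and KO5 were farthest from WT, with miR-181a within its WT range and miR-181b far below. As background, miR-181b minus another tested miRNA left KO wholly below WT for 100 of 369 miRNAs (27.1%), so that a gap of this kind is common for miR-181b.

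Against miR-181d, which differs from it by C12U and by 1 base of length, the shift of miR-181b was less even. The within-mouse difference was 1.32, 1.48, 1.13, 0.08, 0.15 and 0.98 in WT1 to WT6, a mean of 0.86 ± 0.599 (SD, n = 6). In KO1 to KO6 it was 0.44, 0.44, 0.11, -0.07, 0.18 and -0.30, a mean of 0.13 ± 0.287 (SD, n = 6). WT4 and WT5 lay among the KO mice, and the shift of -0.72 (standard error 0.271) rested on the other WT mice. This comparison was added after the correlations below had been seen.

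**Figure D3:**
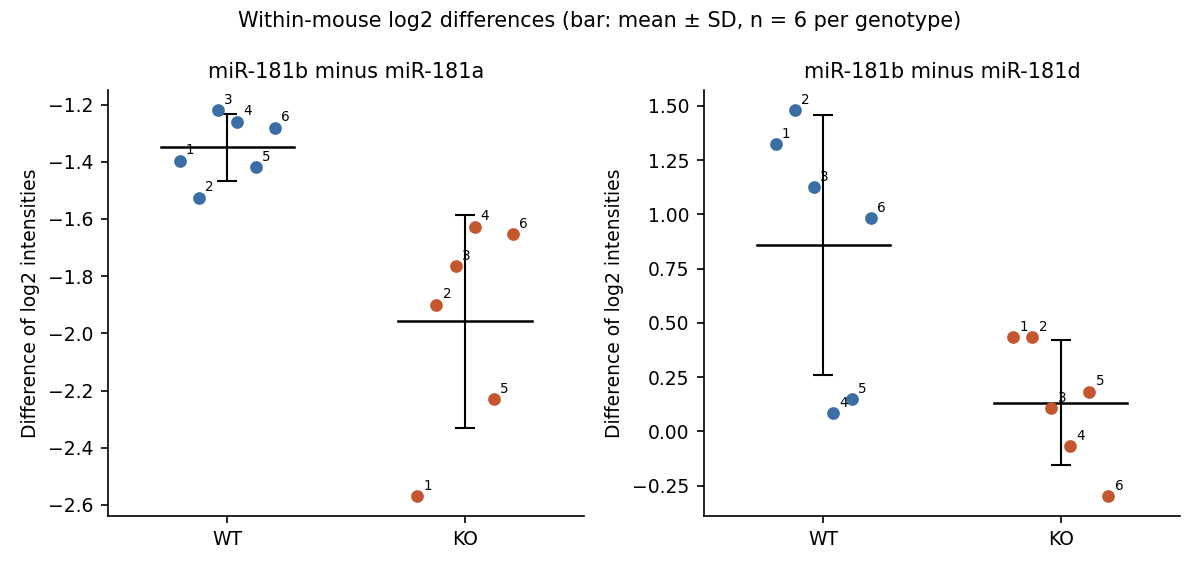
Log2 intensity of miR-181b minus that of miR-181a (left) and of miR-181d (right) within each mouse, with the mouse number beside each point and bars for mean ± SD (n = 6 per genotype). On the left the KO mice lie at -2.57 to -1.63 and the WT mice at -1.53 to -1.22, without overlap, and on the right WT4 and WT5 lie among the KO mice.

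How the members vary together among mice of a genotype had played no part in choosing the family, and here the relations could be tested. Among WT mice miR-181a and miR-181b rose and fell together on the log2 scale, both being higher in WT2, WT3 and WT5 than in WT1, WT4 and WT6. Pearson's r was 0.961 (n = 6, two-sided exact permutation p = 0.0111, adjusted p = 0.133 over 12 relations) and Spearman's rho was 0.886 (exact permutation p = 0.0333, adjusted p = 0.363), and r was 0.966 without WT2 and WT4, the 2 samples farthest from the median of miR-181a. Among KO mice the same pair had an r of 0.421 (n = 6, exact permutation p = 0.369, adjusted p = 0.493) and a rho of 0.600 (exact permutation p = 0.242, adjusted p = 0.363). Without KO2 and KO4, the samples farthest from the median, r was 0.199, and with single mice left out it ran from 0.123 without KO6 to 0.749 without KO1. It was 0.122 after median centring, 0.200 after cyclic loess and 0.282 after quantile normalization.

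miR-181b and miR-181d showed the opposite order. Among KO mice r was 0.983 (n = 6, exact permutation p = 0.0278, adjusted p = 0.167) and rho 0.812 (exact permutation p = 0.0611, adjusted p = 0.363), with both miRNAs lowest in KO1 and KO2 and highest in KO6. Without KO1 and KO6, the samples farthest from the median of miR-181b, r was 0.917 on the 4 mice left. Of these, KO2 stood apart in both miRNAs, at 119 for miR-181b and 88 for miR-181d. KO3, KO4 and KO5 lay close together, at 147 to 159 and at 140 to 154, so this r rests largely on KO2. Among WT mice r was 0.169 (n = 6, exact permutation p = 0.742, adjusted p = 0.809) and rho 0.143 (exact permutation p = 0.803, adjusted p = 0.876), and r was 0.357 without WT3 and WT4. WT4 and WT5 had much miR-181d for their miR-181b.

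None of the 12 relations, 6 pairs in each genotype, passed 0.05 after adjustment, where the smallest p that 6 mice can give is 0.0028. The other 8 had r between 0.0933 and 0.747, with exact permutation p-values of 0.0972 to 0.892 (adjusted p 0.294 to 0.892). For rho their exact permutation p-values were 0.103 to 1 (adjusted p 0.363 to 1), with rho from 0.0286 to 0.771. Leaving out the 2 samples farthest from the median gave these 8 pairs an r of -0.268 to 0.879, the lowest for miR-181a with miR-181c in KO, which had been 0.679 on all 6 mice. Whether the genotypes differ in any of these relations was not tested.

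**Figure D4:**
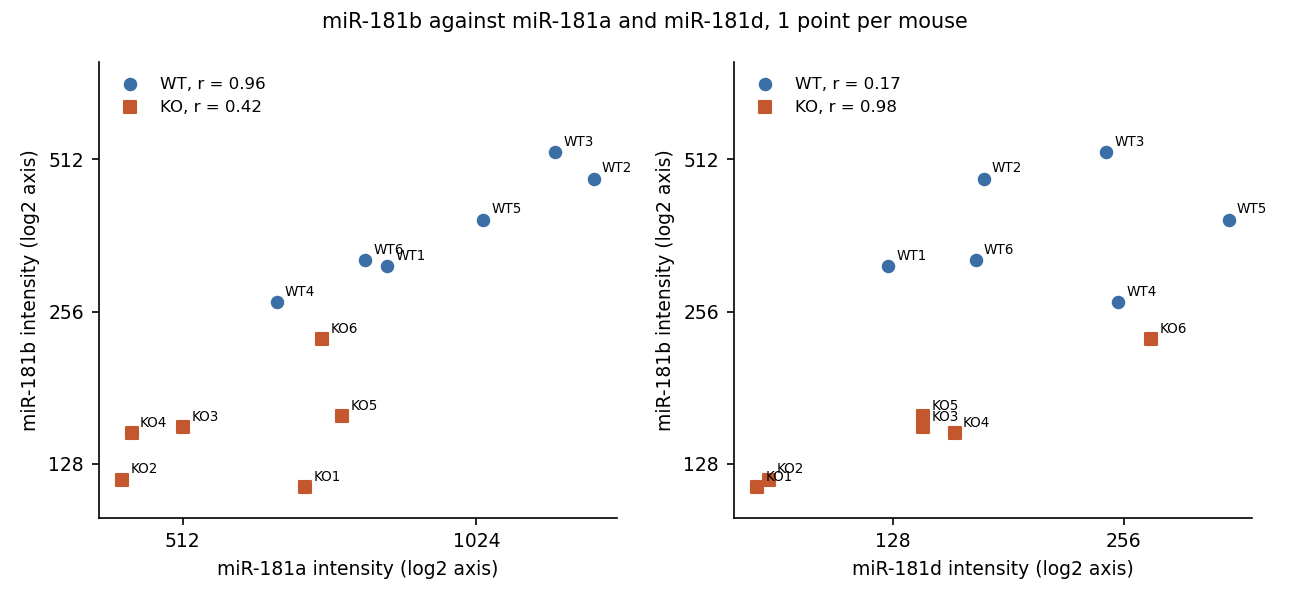
Intensity of miR-181b against miR-181a (left) and miR-181d (right), both axes on a log2 scale, with 1 labelled point per mouse (WT blue circles, KO orange squares) and Pearson's r of log2 intensities in each genotype. The WT mice line up with miR-181a (r = 0.96) and not with miR-181d (r = 0.17), and the KO mice line up with miR-181d (r = 0.98) more than with miR-181a (r = 0.42).

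Other miRNAs also followed miR-181b from mouse to mouse. Of the 369 other miRNAs tested, 29 had an r of at least 0.8 with miR-181b among WT mice and 23 among KO mice. In this order miR-181a was rank 3 in WT and rank 91 in KO, and miR-181d was rank 132 in WT and rank 1 in KO. After the mean of its genotype was taken from each value, the 5 non-members most like miR-181b over the 12 mice were miR-199a-3p (r = 0.957), miR-337-3p (r = 0.911), miR-411* (r = 0.904), miR-380-3p (r = 0.904) and miR-543 (r = 0.868). miR-199a-3p is abundant in fibroblasts and other connective tissue cells. For miR-199a-3p the WT mice averaged 7631 ± 2085 (SD, n = 6) and the KO mice 5558 ± 1359 (SD, n = 6), and limma gave a log2 difference of -0.44 (standard error 0.235) with an adjusted p of 0.320. For miR-181a the nearest was miR-434-3p, at an r of 0.881.

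The other arms gave no usable second reading of the hairpins. The array carries 6 of them, miR-181a-1*, miR-181a-2*, miR-181b-1*, miR-181b-2*, miR-181c* and miR-181d*, with mean intensities of 2.33 to 8.92 over the 12 mice, below the median miRNA of any sample. None reached the mean of 32 that testing required. miR-181b-1* was at 0, 2, 4, 4, 4 and 3 in WT and at 2, 2, 2, 3, 1 and 1 in KO, and miR-181b-2* was at 1, 1, 2, 4, 4 and 2 in WT and at 2, 1, 1, 1, 23 and 0 in KO. Apart from the 23 in KO5, values this low have no order that could be read, so that the arms cannot say which of the miR-181b genes changed.

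Within 50 kb of Mir181c and Mir181d lie Mir23a, Mir27a and Mir24-2, which are transcribed as a cluster of their own, and Mir3074-2. Of the 8 array names from these genes 4 were tested, and all 4 had a lower mean log2 intensity in KO, as had 56.8% of all miRNAs tested. The WT mice averaged 4116 ± 1378 (SD, n = 6) for miR-23a and the KO mice 2366 ± 848 (SD, n = 6), and by limma the log2 difference was -0.80 with a standard error of 0.290 and an adjusted p of 0.132. For miR-27a the averages were 423.0 ± 116 (SD, n = 6) and 239.3 ± 107 (SD, n = 6), and by limma the log2 difference was -0.89 with a standard error of 0.308 and an adjusted p of 0.127. miR-24, which is also made from Mir24-1, differed by -0.25 (standard error 0.180, adjusted p by limma 0.490). For miR-23a* the log2 difference was only -0.09 (standard error 0.445), and its linear mean was higher in KO (54.2) than in WT (48.8). None of the 4 passed the adjusted threshold in this fit, whereas miR-23a, miR-27a and miR-24 passed it with array weights. At the unadjusted threshold miR-23a and miR-27a passed as lower in KO, beside 9.73% of all miRNAs tested.

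miR-181 acts in myoblast differentiation beside other miRNAs. Of 13 miRNAs known to promote it, 12 were on the array by name and 9 were tested; 0 passed the adjusted threshold by limma, and 2 passed the unadjusted one, both lower in KO, beside 9.73% of all tested, with a median log2 difference of -0.25 over the list against -0.08 over all miRNAs tested. The 2 were miR-27b, at -0.87 (adjusted p = 0.127 from limma), and miR-503, an inhibitor of the cell cycle phosphatase Cdc25A, at -0.51 (adjusted p = 0.251 from limma). miR-206, a muscle miRNA induced by MyoD, averaged 24991 ± 2061 (SD, n = 6) in the WT mice and 23644 ± 2808 (SD, n = 6) in the KO mice. Of 5 miRNAs known to keep myoblasts proliferating or to hold differentiation back, 4 were tested, with a median of -0.36, and 0 passed either threshold by limma.

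miR-181 is also made outside muscle fibres, and markers of those cells were read in the same samples. For endothelium, miR-126-3p differed by -1.20 on the log2 scale (standard error 0.313, adjusted p by limma 0.0615). It passed the unadjusted threshold by limma as lower in KO, beside 9.73% of all tested, and was the fall of rank 3 among the 370 miRNAs. The summed intensity of the 2 endothelial markers was 2233 to 4745 in WT and 765 to 2709 in KO. The other endothelial marker, miR-126-5p, never passed 6. For blood cells 1 of 7 markers, miR-451 of red cells, was bright enough to be tested, at -0.94 (standard error 0.693; adjusted p by limma 0.497), and the 7 summed to 109 to 479 in WT and 53 to 381 in KO. miR-142-3p, which all white blood cells express, never passed 7 in any mouse. For smooth muscle and connective tissue 5 of 6 markers were tested, and all 5 had a lower mean log2 intensity in KO, beside 56.8% of all tested. Their median log2 difference was -0.18, against -0.08 over all miRNAs tested, with miR-145 lowest at -0.60 (standard error 0.286). By limma 0 passed either threshold, where 0.27% (adjusted) and 9.73% (unadjusted) of all tested passed as lower. The markers summed to 19629 to 26313 in WT and 17882 to 26229 in KO. The part of these cells in the lower miR-181b was not tested.

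**Figure D5:**
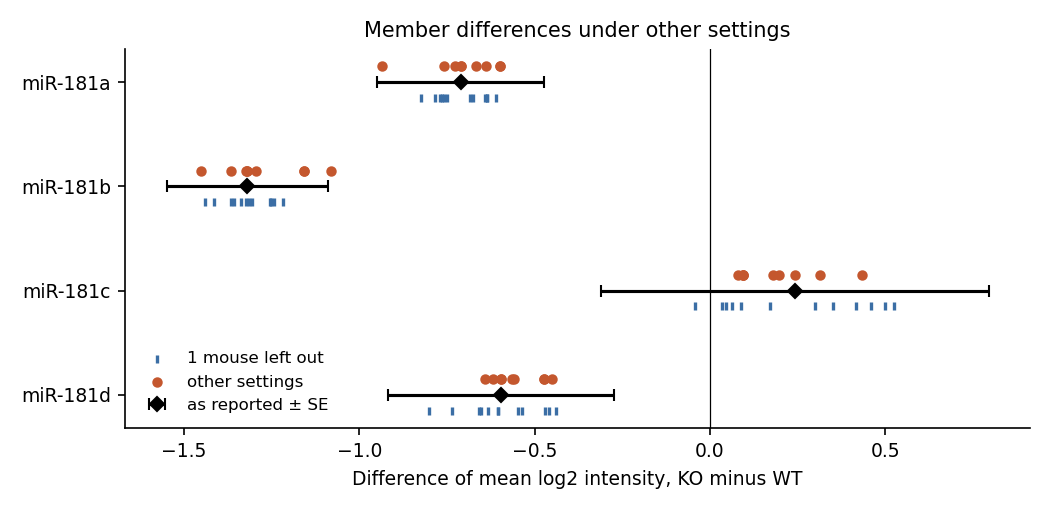
Difference of mean log2 intensity, KO minus WT, of each member as reported (black diamond ± standard error), with each of the 12 mice left out in turn (blue ticks) and under 9 other settings of scale, normalization, pairing and weighting (orange points). miR-181b stays between -1.45 and -1.08 throughout, and miR-181c lies on both sides of 0 when single mice are left out.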

How the data were processed

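Total RNA of 12 quadriceps muscles was profiled by LC Biosciences. The table the authors deposited holds normalized intensities on a linear scale, rounded to whole numbers, for 1096 names in each sample; the normalization method, background correction and handling of repeated spots are not given in the sources used here. An intensity has no count behind it, and 6 mice per group limit the precision. Littermate pairs are described, but whether a sample's number stands for its litter is not given in the sources used here. Samples were grouped by their titles.

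Intensities below 1 were set to 1 before log2 was taken. The genotypes were compared by limma 3.58.1 in R 4.3.3 over names with a mean intensity of at least 32, two-sided, with Benjamini-Hochberg adjustment over all of them; the fit was tested on simulated data. Correlations enumerated the 720 orders of 6 mice (two-sided, the smaller tail doubled). The miRNAs named were the members, their other arms, miRNAs encoded within 50 kb, the 5 non-members most like miR-181b over the 12 mice, those of the lists past the unadjusted threshold, and examples from the lists. miR-1 was read as miR-1a and miR-208a as miR-208a-3p, and miR-486 and miR-199b were not analysed here. Members and lists were chosen with earlier results of these data known. RefSeq sequences and gene neighbours are of GRCm38.p6. Plots used matplotlib 3.10.9.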

Additional observations from a re-analysis of the deposited data

Results flagged for a closer look

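A sample was looked at again where its gap to the nearest of the other 5 of its genotype, as a share of the group's range, passed Dixon's critical value at the 5% level. Of 24 groups, made of the 4 members, the 6 other arms and the 2 within-mouse differences in each genotype, 1 passed, where chance gives about 1.2. It was miR-181b-2* in KO, at 23 in KO5 and between 0 and 2 in the other KO mice.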

How the results depend on the processing

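Under 9 other settings the log2 differences of the members ran from -0.94 to -0.60 for miR-181a, -1.45 to -1.08 for miR-181b, 0.08 to 0.44 for miR-181c and -0.64 to -0.45 for miR-181d, all within 1 SD of the mice. That SD was wide for miR-181c, at 1.07. A replicate block cannot move these differences, and a floor of 32 cannot move those of miR-181a, miR-181b and miR-181d. With each mouse left out the differences ran from -0.82 to -0.61, -1.44 to -1.22, -0.04 to 0.52 and -0.80 to -0.44. The shift of miR-181b against miR-181a was -0.66 to -0.42 and against miR-181d -0.88 to -0.63, and with a mouse left out -0.67 to -0.49 and -0.88 to -0.60. The block, the floor and median centring cannot move these shifts. The count of members past the adjusted threshold, 1 as reported and in 10 of 13 other settings, was 2 with array weights, 0 with no filter, where 1096 names are tested, and 0 with the replicate block and cyclic loess. With the replicate block alone it was 1, at the same log2 differences (-1.32 for miR-181b), and it was 1 with any mouse left out. These counts come from the contrast on which the family was selected, and they restate that choice under each setting. Array weights also took 3 neighbours, miR-23a, miR-27a and miR-24, past the adjusted threshold, from 0; KO1 had the lowest weight, 0.156. The cause was not tested for the weights and the block. The main fit took no pairs, because the methods name no model for miRNAs. Deviations of same-numbered mice correlated at -0.453 to 0.594, below 0 for 2 of the 6 numbers. Of the 12 samples 5 correlated best with their own number, where chance gives about 2. These values cannot decide whether numbers mark litters, which stays unknown. The correlation of miR-181a with miR-181d in WT turned to -0.117 after quantile normalization, and with a mouse left out it ran from -0.0717 to 0.387, in KO from -0.0702 to 0.619. That of miR-181b with miR-181d in WT ran from -0.0438 to 0.450. With a mouse left out, miR-181a and miR-181b had an r of 0.936 to 0.994 in WT and 0.123 to 0.749 in KO, and miR-181b and miR-181d one of 0.952 to 0.997 in KO. Dim values limit miR-181c and the other arms.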
